A study of Mus musculus with 4 samples.

Results

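Glycolysis breaks glucose down to pyruvate in the cytosol, and several of its steps are carried out by enzymes that exist as isoforms encoded by separate genes. The 10 genes described here are the hexokinases Hk1 and Hk2, the phosphofructokinase subunits Pfkm, Pfkl and Pfkp, the enolases Eno1 and Eno2, the lactate dehydrogenase subunits Ldha and Ldhb, and the aldolase Aldoa. They were chosen by name, and for each the platform's gene table was searched for probe sets paired with that gene alone, of which the brightest on average was read. Such a probe set was found for 9 of the 10, out of 19938 genes with a probe set of a single symbol. Eno1 was not analysed here, because no probe set was paired with it in the table used, so the balance of the enolases could not be followed. Of the 9, all but Hk2 reached a signal of 8.41 on the log2 scale on at least 1 array. That signal, the median over probe sets with a single symbol, was the level filter used below, and it left 8 members among 10901 genes.

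The data are Affymetrix array signals from the pontine nucleus of ICR mice, a ventral brainstem nucleus that sends cortical signals on to the cerebellum as mossy fibres. The arrays were labelled E17.5, P1, P5 and P14, for embryonic day 17.5 and postnatal days 1, 5 and 14, and held RNA pooled from 27, 16, 13 and 12 mice, in that order; the labels name no treatment and no engineered allele. With 1 array per age there was no replicate, so differences are between single arrays, without a test. The only error at hand was how far a difference varied among probe sets of 1 gene (SD, 645 genes): 0.12 on the log2 scale for P1 versus E17.5, 0.18 for P5 versus E17.5, 0.13 for P14 versus E17.5, 0.18 for P5 versus P1, 0.10 for P14 versus P1 and 0.14 for P14 versus P5. Some of these probe sets list the same transcripts and give nearly the same signal, so the true probe error may be larger. Because each pool was dissected tissue, fewer cells of a type and less RNA per cell cannot be told apart.

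The order of the arrays in their signals differed from that in their labels. Over the 10901 genes Pearson's r with the P1 array was 0.966 for the P14-labelled array and 0.809 for the P5-labelled array. The value labelled P14 lay strictly between those of P1 and the P5-labelled array for 60.5% of these genes, and for 5 of the 8 members (Hk1, Pfkm, Eno2, Ldhb and Aldoa). For Hk1 this held with its brightest probe set only. The other one stood at 11.20 at P1, 11.19 on the P5-labelled array and 11.30 on the P14-labelled array. The labels are kept as deposited, results that use these arrays are given for the labelled array, and P1 versus E17.5 is the comparison free of both. All 7 markers of pontine neurons passed the level filter, led by Nfib (13.52, 13.40, 12.20 and 12.99 in the order of the labels) and Barhl1 (12.23, 11.79, 10.83 and 11.61), the brightest on average. Between E17.5 and the P5-labelled array 5 of the 7 were lower and 2 higher, the latter being Slc17a6 (0.13) and Slc17a7, a vesicular glutamate transporter gene (8.16, 9.38, 12.90 and 11.36), both named after their values were seen. The P5-labelled array also stood apart in glia: the median level of 7 oligodendrocyte markers was 7.35 at E17.5, 7.62 at P1, 12.91 on the P5-labelled array and 8.50 on the P14-labelled array, and that of 8 astrocyte markers was 9.45, 10.38, 11.86 and 11.09. The median level of 6 neuronal markers was 12.44, 12.17, 12.67 and 12.73, but 5 of the 6 were highest on the P5-labelled array, as were 39.9% of all genes. The median difference of the 6 between that array and E17.5 was 0.63. Of them 2 were at least 2-fold higher and 1 lower, where 11.3% and 5.5% of all genes were. None of 6 skeletal muscle markers passed the level filter. How much of the differences below goes with these changes in glial and neuronal RNA was not tested.

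In the brain, Hk1 is the main hexokinase and sits on mitochondria, while Hk2 is best known from muscle, fat and tumours. Phosphofructokinase is a tetramer that can mix the muscle (Pfkm), liver (Pfkl) and platelet (Pfkp) subunits and sets much of the pathway's rate. Eno2, neuron-specific enolase, replaces the ubiquitous Eno1 as neurons mature. Lactate dehydrogenase tetramers rich in the A subunit (Ldha) are typical of tissues that make lactate, and those rich in the B subunit (Ldhb) of tissues that oxidise it. Aldoa is the aldolase of muscle and neurons, and its relative Aldoc is the aldolase of astrocytes and of some cerebellar Purkinje cells.

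Of the pairs compared below, Ldhb and Ldha formed the one whose log2 difference shifted most between arrays (1.44). Eno2 had the widest range of the members (2.15), and Pfkp the largest difference between E17.5 and P1 (0.67). For that reason the promoters of Ldha, Ldhb, Eno2 and Pfkp are shown. Each is a window of 300 bases from RefSeq (assembly GRCm38.p6), from 250 bases before the start to 50 after it, and capitals mark ACGTG or GCGTG on either strand, the cores of sites that hypoxia-inducible factor can bind; ACGTG also lies within the E-box CACGTG.
Ldha, chr7:46845554-46845853, plus strand: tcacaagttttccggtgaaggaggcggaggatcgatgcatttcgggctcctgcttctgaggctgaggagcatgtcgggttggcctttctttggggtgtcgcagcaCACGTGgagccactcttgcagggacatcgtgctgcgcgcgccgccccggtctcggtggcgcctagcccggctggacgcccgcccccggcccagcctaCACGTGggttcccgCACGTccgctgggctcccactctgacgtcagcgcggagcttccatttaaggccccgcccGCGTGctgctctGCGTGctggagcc
Ldhb, chr6:142507908-142508207, minus strand: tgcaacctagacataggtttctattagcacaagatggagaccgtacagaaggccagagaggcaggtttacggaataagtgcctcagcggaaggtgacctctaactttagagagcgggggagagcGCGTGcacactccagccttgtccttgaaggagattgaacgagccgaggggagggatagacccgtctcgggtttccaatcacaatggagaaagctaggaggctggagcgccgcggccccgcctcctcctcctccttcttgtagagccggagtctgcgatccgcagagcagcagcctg
Eno2, chr6:124769624-124769923, minus strand: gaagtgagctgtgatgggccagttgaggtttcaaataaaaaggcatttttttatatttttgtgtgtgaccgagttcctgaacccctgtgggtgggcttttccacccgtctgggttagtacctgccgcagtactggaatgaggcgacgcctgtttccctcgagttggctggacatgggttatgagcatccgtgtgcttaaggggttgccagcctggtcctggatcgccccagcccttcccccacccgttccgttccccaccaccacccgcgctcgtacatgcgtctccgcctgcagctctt
Pfkp, chr13:6648722-6649021, minus strand: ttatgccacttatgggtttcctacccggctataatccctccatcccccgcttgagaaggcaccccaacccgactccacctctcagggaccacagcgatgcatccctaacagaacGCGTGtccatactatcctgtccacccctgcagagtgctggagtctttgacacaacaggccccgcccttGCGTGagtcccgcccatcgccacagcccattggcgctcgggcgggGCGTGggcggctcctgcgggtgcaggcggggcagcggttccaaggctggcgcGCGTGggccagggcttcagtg

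The Ldha window held 5 separate stretches of these letters, 2 of them the E-box CACGTG, and it also held the cyclic AMP response element TGACGTCA. The Ldhb window held 1 stretch and the Eno2 window none; Eno2 held 1 TATAAA. The Pfkp window held 4 stretches, all GCGTG, and 4 GC boxes (GGGCGG). Over all 32851 promoter windows of this length, 43.8% held ACGTG or GCGTG, 7.15% CACGTG, 1.79% TGACGTCA, 35.7% GGGCGG and 13.6% TATAAA, each on either strand. Hk1, Pfkm, Eno1, Ldha and Aldoa had more than 1 window in the table, some of which overlap, and the first listed is printed for Ldha. The letters are a description of these windows and say nothing of a factor at work.

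**Figure D1:**
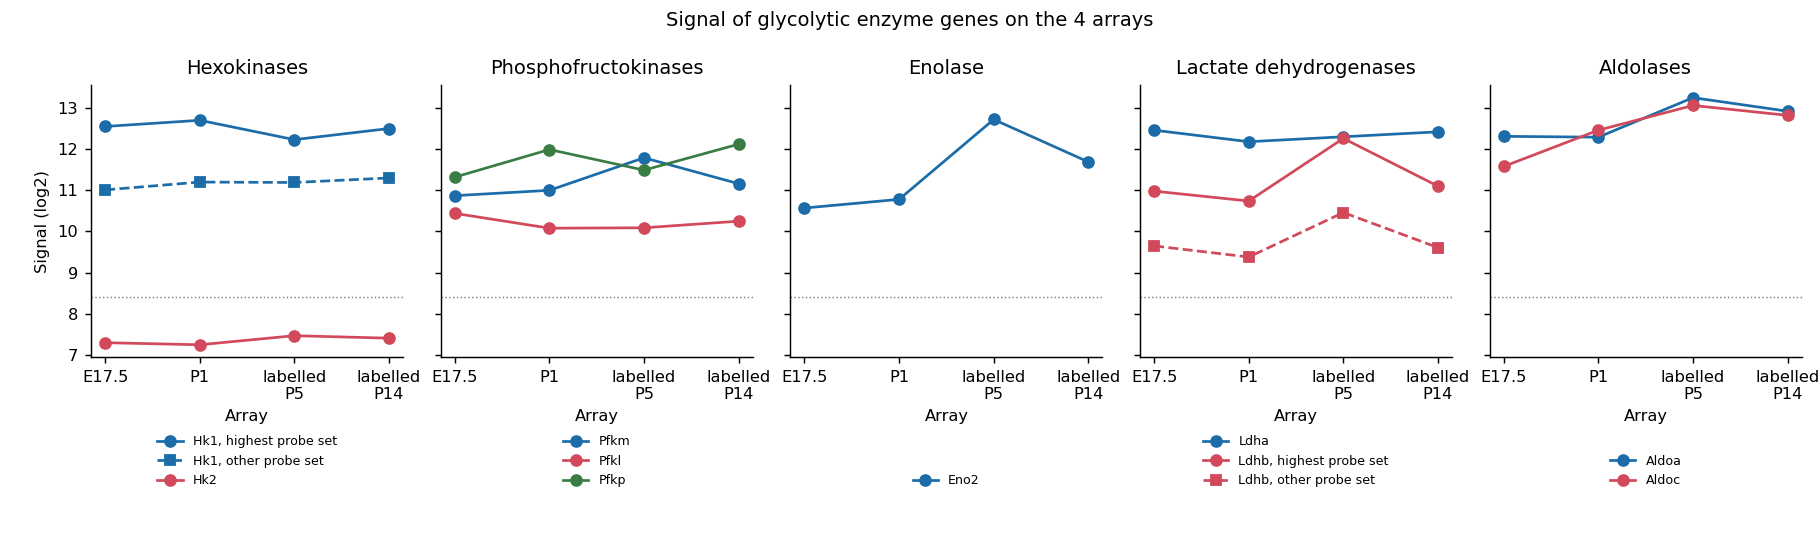
Log2 signal of each isoform gene on the arrays labelled E17.5, P1, P5 and P14, with dashed lines for a second probe set of the same gene, Aldoc added as the partner of Aldoa, and a dotted line at the level filter of 8.41. On this deposited scale Eno2, Ldhb, Pfkm and Aldoa are highest on the P5-labelled array (centring on the median housekeeping level puts Pfkm highest at P1 and Aldoa on the P14-labelled array), Pfkp is lower there than on the P1 and P14 arrays, Ldha stays between 12.18 and 12.46, and Hk2 lies under the filter; heights of different probe sets cannot be compared.

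Eno2 had the widest range of the members, 2.15 on the log2 scale. Its signal was 10.57 at E17.5, 10.78 at P1, 12.72 on the P5-labelled array and 11.69 on the P14-labelled array. The P5-labelled array was thus 4.44-fold above E17.5 and 3.84-fold above P1, and the P14-labelled array lay between P1 and it. The difference of 0.21 between P1 and E17.5 was 1.79 times the probe set SD, whereas that of 1.12 for P14 versus E17.5 was 8.33 times it. Among the genes past the filter, 3.19% were at least as far apart as Eno2 between the P5-labelled array and E17.5, and 1.88% between P14 and P1.

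Ldhb and Ldha parted on the P5-labelled array. Ldhb had a signal of 10.98 at E17.5, 10.74 at P1, 12.26 on the P5-labelled array and 11.10 on the P14-labelled array, so that the P5-labelled array stood above the other 3, which spanned 0.36. Its second probe set, at 9.65, 9.38, 10.46 and 9.61, was likewise lowest at P1 and highest on the P5-labelled array. Ldha, the other subunit, stood at 12.46, 12.18, 12.30 and 12.42, a range of 0.28. The balance of Ldhb over Ldha, the log2 difference between the subunits on an array, therefore shifted by 1.44 between E17.5 and the P5-labelled array (2.71-fold, against a probe set SD of 0.26 for such a shift). The shift was 0.97 with the second Ldhb probe set. Between E17.5 and P1, where both subunits were slightly lower (−0.24 and −0.28), the balance shifted by 0.04, and between E17.5 and the P14-labelled array by 0.16, both within the probe set SD of 0.17 and 0.19.

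The phosphofructokinase subunits went in different directions. Pfkm, the muscle subunit, had a signal of 10.87 at E17.5, 11.00 at P1, 11.79 on the P5-labelled array and 11.16 on the P14-labelled array. Pfkp, the platelet subunit, stood at 11.32, 11.99, 11.49 and 12.12, high on the P1 and P14 arrays and low on the E17.5 and P5 arrays. Pfkl, the liver subunit, stood at 10.44, 10.08, 10.09 and 10.25, highest at E17.5 and within 0.17 on the other arrays.

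Around birth the balance moved to Pfkp: between E17.5 and P1 Pfkp differed by 0.67 (1.59-fold), Pfkm by 0.13 and Pfkl by −0.36. Pfkp over Pfkl shifted by 1.03 (2.04-fold, probe set SD 0.17) and Pfkp over Pfkm by 0.54, in a comparison that uses neither the P5-labelled nor the P14-labelled array. At 1.5-fold, Pfkp was the only member apart in this comparison, in which 3.83% of genes were at least 1.5-fold higher; no member reached 2-fold, the distance of 1.1% of genes. Between P1 and the P5-labelled array the balance of Pfkp over Pfkm shifted the other way, by −1.29 (2.45-fold, SD 0.25), with Pfkm at 0.79 and Pfkp at −0.50. On the P14-labelled array it was back near its P1 value, with a shift of −0.03 between these arrays. Pfkl over Pfkm shifted by −1.27 between E17.5 and the P5-labelled array.

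**Figure D2:**
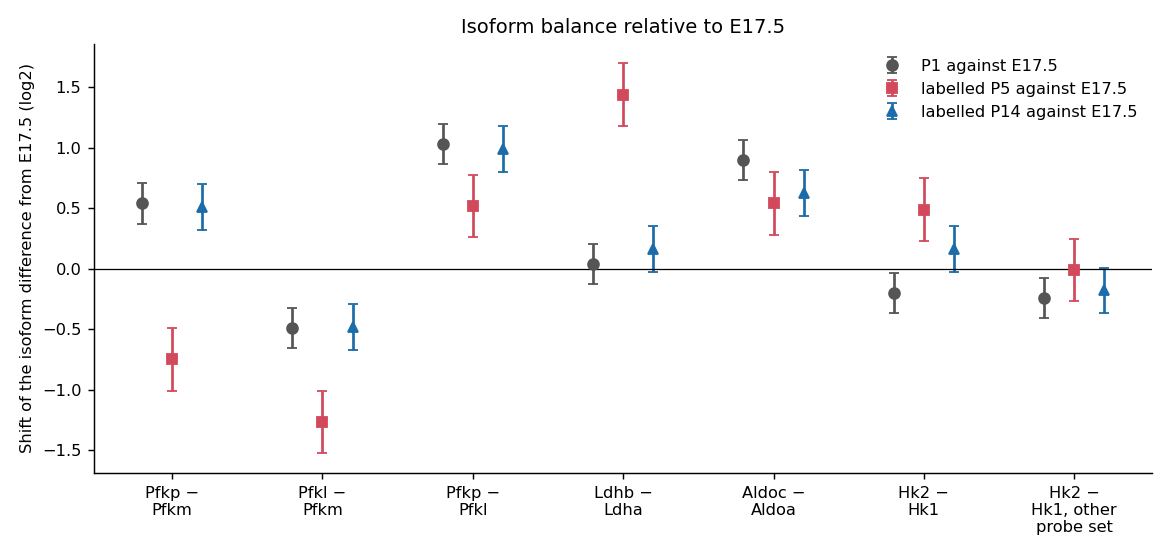
Shift of the log2 difference between the members of a pair, from its value at E17.5, for the arrays labelled P1 (circles), P5 (squares) and P14 (triangles); bars are 1 SD of such a shift among probe sets of 1 gene. Ldhb over Ldha shifts by 1.44 on the P5-labelled array alone, Pfkp over Pfkm lies above 0 for P1 and P14 and below it for P5, and the last column, with the other Hk1 probe set, lacks the shift of 0.49 seen for Hk2 over Hk1.

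Aldoa had a signal of 12.31 at E17.5, 12.29 at P1, 13.25 on the P5-labelled array and 12.92 on the P14-labelled array. The E17.5 and P1 arrays were level, and the P5-labelled array was 1.92-fold above E17.5. Aldoc, which is not among the 10 genes, stood at 11.58, 12.46, 13.06 and 12.82, and the step between E17.5 and P1 was 0.88. The balance of Aldoc over Aldoa shifted by 0.90 between E17.5 and P1 (1.87-fold, SD 0.17), by 0.54 to the P5-labelled array and by 0.63 to the P14-labelled array. Between P1 and the later labels the shift was −0.36 and −0.27. The step in Aldoc at P1 stood beside one in the astrocyte markers, of which Slc1a3 had signals of 11.55 and 12.09 at those ages, and Aqp4 of 10.74 and 11.83; its part was not tested.

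The hexokinases gave no shift that held across probe sets. Hk2 lay under the level filter on every array, at 7.30, 7.25, 7.47 and 7.41, a range of 0.22. The Hk1 probe set chosen by the rule stood at 12.55, 12.70, 12.23 and 12.50, lowest on the P5-labelled array. The platform's table pairs that probe set with a single accession and no RefSeq transcript, and the same accession is listed for 16 further probe sets, all named for Hk1 together with Rpl17, a ribosomal protein gene. All 16 were lower on the P5-labelled array than at P1, by −0.68 to −0.41 (median −0.55), and the chosen probe set differed by −0.47. The median difference of 52 ribosomal protein genes past the filter was −0.46, with 51 of 52 below 0. The other Hk1 probe set, which is paired with RefSeq transcripts of Hk1, stood at 11.01, 11.20, 11.19 and 11.30, and differed by −0.01 between P1 and the P5-labelled array. Hk2 over Hk1 shifted by 0.49 between E17.5 and the P5-labelled array with the chosen probe set and by −0.01 with the other. Which transcripts the chosen probe set reads was not tested.

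**Figure D3:**
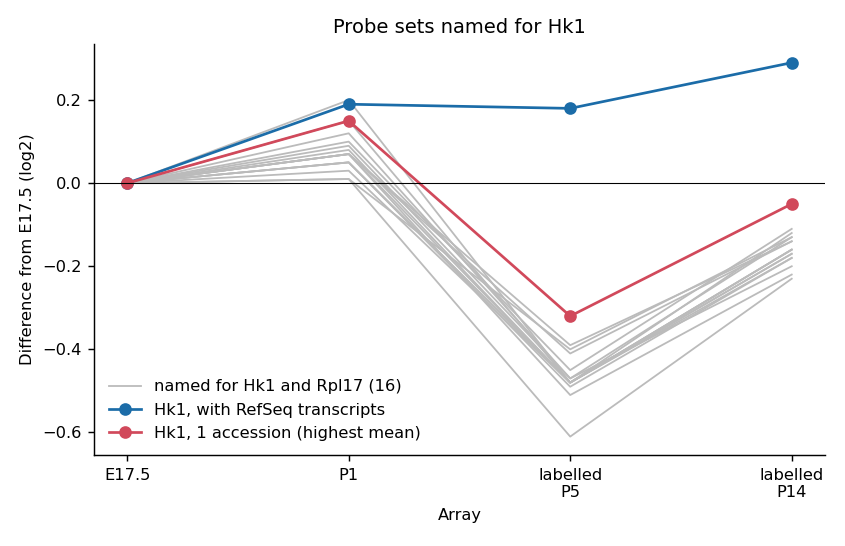
Difference from the E17.5 array on the log2 scale for the Hk1 probe set with the highest mean (red), the Hk1 probe set paired with RefSeq transcripts (blue) and the 16 probe sets named for both Hk1 and Rpl17 (grey), on the arrays labelled E17.5, P1, P5 and P14. On the P5-labelled array the red line lies at −0.32, near the grey ones, and the blue line at 0.18.

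Counted at 2-fold, 2 of the 8 members past the filter, Eno2 and Ldhb, were higher on the P5-labelled array than at E17.5, where 11.3% of all genes were; the same genes were called against P1, where 8.96% of all genes were higher. The Ldhb call for P5 versus E17.5, at 1.28, was lost with its second probe set (0.81) and after centring on the median housekeeping level (0.385). None was at least 2-fold lower in either comparison on the deposited scale (5.5% and 3.94% of genes). After that centring, Hk1 (−1.215), Pfkl (−1.245) and Ldha (−1.055) were at least 2-fold lower for P5 versus E17.5, as were 5192 of 11241 genes. For P5 versus P1, Hk1 (−1.38) and Pfkp (−1.41) were, as were 4653 of 11241 genes. Both Hk1 calls rest on the probe set chosen by the rule. The RefSeq-paired Hk1 probe set, at 0.18 and −0.01 on the deposited scale, was not tried after this centring. Eno2 stayed at least 2-fold higher in both comparisons, as did 355 and 239 of 11241 genes. Eno2 alone was at least 2-fold higher on the P14-labelled array than at E17.5 (4.55% of genes). That call was lost after the centring (0.69), where 209 of 11241 genes were higher. None was 2-fold apart between P14 and P1 (1.47%). Eno2 and Ldhb were at least 2-fold lower on the P14-labelled array than on that labelled P5 (4.5%), where Ldhb was at −0.85 with its second probe set. After the centring neither was called there (−0.565 and −0.695), and Pfkp was 2-fold higher (1.095), as were 971 of 11241 genes. At 1.5-fold, the members called in either direction were 1 for P1 versus E17.5 (5.92% of all genes), 4 for P5 versus E17.5 (35.3%), 3 for P14 versus E17.5 (18.2%), 4 for P5 versus P1 (30.5%), 2 for P14 versus P1 (5.84%) and 4 for P14 versus P5 (19.6%). Counts over 8 genes are too small to be set apart from these shares. Of the 8 members, 4 (Pfkm, Eno2, Ldhb and Aldoa) were highest on the P5-labelled array, where 39.9% of all genes were highest; under centring on the median housekeeping level Eno2 and Ldhb still were, while Pfkm was highest at P1 and Aldoa on the P14-labelled array. As a measure of spread, 2 of 8 had a 2-fold range over the arrays, as had 19.4% of all genes.

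The directions depended chiefly on 1 of the scalings tried. Centring each array on its own median, quantile normalization and centring on the median difference of 12 housekeeping genes kept the direction of every member difference except that of Pfkl between P1 and the P5-labelled array, of 0.01; that of Hk1 between E17.5 and the P14-labelled array (−0.05) became 0 under quantile normalization. Centring on the median level of the same housekeeping genes put the median of all genes at −0.945 for P5 versus E17.5 and at −0.88 for P5 versus P1, where the deposited scale had −0.02 and 0.05. It turned the 2-fold calls over all genes from 1234 higher and 600 lower to 355 and 5192 for P5 versus E17.5, from 977 and 429 to 239 and 4653 for P5 versus P1, from 496 and 130 to 209 and 957 for P14 versus E17.5, from 149 and 11 to 35 and 160 for P14 versus P1, and from 235 and 491 to 971 and 186 for P14 versus P5. Under it Eno2 stayed higher on the P5-labelled array than at P1 (1.03), as did Ldhb (0.61), while Aldoa differed by 0.05 and Pfkm by −0.12. The isoform balances do not depend on such centring, since it moves both genes of a pair alike.

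Of 17 listed glycolysis genes outside the members, 13 had a probe set and 8 passed the filter. All 8 were highest on the P5-labelled array, as were 39.9% of all genes (none of the 8 after centring on the median housekeeping level). For Eno3 this was fixed by the filter, which it passed on that array alone. Of the genes under the filter, Pgam2 was highest there too, but Hk3, Hkdc1, Pklr and Ldhc were highest on the P14-labelled array. The median difference of the 8 between E17.5 and the P5-labelled array was 0.56, against −0.02 for all genes. Of the 8, 1 was at least 2-fold higher, as were 11.3% of all genes. With no filter the median of 13 was 0.35, and after centring on the median housekeeping level the median of the 8 was −0.335, against −0.945 for all genes. Between E17.5 and P1 their median was −0.09, with 4 above and 4 below 0. The largest differences for P5 versus E17.5 after Aldoc (1.48) were those of Pgk1, which makes the pathway's first ATP (0.91), and Tpi1, triose phosphate isomerase (0.83), and the smallest were those of the ADP-dependent glucokinase Adpgk (0.20), the muscle enolase Eno3 (0.34), past the filter on the P5-labelled array alone, and the pyruvate kinase Pkm (0.35). The 3 Pgk1 probe sets gave nearly the same signals and are not independent readings. Pkm makes splice forms that a gene-level probe set does not separate. Gapdh was not analysed here, and the hexokinase relative Hkdc1, at 7.20, 7.32, 7.17 and 7.51, lay under the filter.

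Transport genes for glucose and lactate stood higher in the same comparison, with a median of 0.75 over 9 genes past the filter (−0.15 after centring on the median housekeeping level, where that of all genes was −0.945). Of these, 4 exceeded E17.5 by 2-fold or more, as did 11.3% of all genes, and 8 were highest on the P5-labelled array, as were 39.9%. After the centring 1 was 2-fold higher and 1 lower, where 355 and 5192 of 11241 genes were, and 2 were highest on the P5-labelled array. Slc2a4 passed the filter through the P5-labelled array alone (8.59). Slc16a1, the monocarboxylate transporter MCT1 that carries lactate in oligodendrocytes and endothelium, had signals of 9.12, 10.15, 11.43 and 11.26 in the order of the labels. It was the only one of the 9 at least 2-fold higher at P1 than at E17.5, as were 0.826% of all genes. The others at 2-fold were Emb, a chaperone of such transporters (1.74), the glucose transporter Slc2a6 (1.60) and the neuronal glucose transporter Slc2a3 (1.04). Slc2a1, the transporter of the blood-brain barrier, differed by 0.69, Slc2a8 by 0.41 and the chaperone Bsg by 0.36. Slc16a7, the neuronal monocarboxylate transporter MCT2, differed by −0.17, within the probe set SD. Endothelial markers had medians of 9.20, 8.97, 9.34 and 9.21. Which cells the differences in these transport genes come from was not tested.

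Most genes listed for pyruvate entry and for shuttles of reducing equivalents into mitochondria stood higher as well on the deposited scale. The pyruvate entry list holds mainly pyruvate dehydrogenase subunits and their regulators. Its pyruvate carrier gene Mpc1, named after its values were seen, differed by 0.47 for P5 versus E17.5. Of 13 genes of pyruvate entry, 5 were at least 2-fold higher and 1 lower on the P5-labelled array than at E17.5 (median 0.73), where 11.3% and 5.5% of all genes were. After the housekeeping centring 1 was higher and 2 lower (median −0.17, against −0.945 for all genes), where 355 and 5192 of 11241 genes were. The kinases Pdk2 (2.05) and Pdk3 (1.69), which switch pyruvate dehydrogenase off, and its subunit Dlat (1.57) led. The others called higher were the kinase Pdk4 (1.41), which passed the filter through the P5-labelled array alone, and the subunit Pdha1 (1.04), both named after their values were seen. The kinase Pdk1 differed by 0.29, and the phosphatases Pdp1 and Pdp2, which switch the complex on, by −0.31 and −1.22. Of 8 shuttle genes past the filter, all were higher on the deposited scale, and all were highest on the P5-labelled array, where 39.9% of all genes were highest. Of the 8, 3 were at least 2-fold higher (median 0.63), as were 11.3% of all genes. After the housekeeping centring 1 was at least 2-fold higher, as were 355 of 11241 genes, and 3 were highest on the P5-labelled array (median −0.27, against −0.945 for all genes). The share of all genes highest there was not counted after this centring. Differences were widest for Gpd1 (2.66), with the aspartate aminotransferase Got1 at 1.61 and the malate dehydrogenase Mdh1 at 1.34, and the smallest differences for the oxoglutarate carrier Slc25a11 (0.20), Mdh2 (0.40) and Slc25a12 (0.54). Gpd1, a glycerol phosphate dehydrogenase abundant in oligodendrocytes, stood at 8.0, 7.85, 10.66 and 8.14, so that its level off the P5-labelled array lay under the filter. Its place among the genes highest on that array was thus fixed by the filter.

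For P5 versus E17.5 the median for glycogen genes was 0.96 over 8 (−0.02 for all genes), and 3 were at least 2-fold higher, as were 11.3% of all genes. After the housekeeping centring the median was 0.06 (−0.945 for all genes), with 1 higher and 1 lower, where 355 and 5192 of 11241 genes were. The 3 were Gyg, the glycogen primer (1.13), the branching enzyme Gbe1 (1.06) and the phosphorylase Pygm, at 7.30, 7.34, 9.42 and 7.70. Pygm passed the filter through the P5-labelled array alone and could pass it only by differing. Pygb, the brain phosphorylase, differed by 0.68, the synthase Gys1 by 0.26 and Pgm2 by −0.14. Regulators of flux did not share a direction (median 0.12 over 6 genes, or −0.78 after the housekeeping centring, against −0.02 and −0.945 for all genes). Of the 6, 1 was at least 2-fold lower, as were 5.5% of all genes. Pfkfb3 and Pfkfb4, which make the activator of phosphofructokinase, differed by −0.99 and −1.04, Pfkfb2 of the same family by 0.15, and Tigar, which removes that activator, by 0.52; the glucose phosphatase G6pc3 differed by 0.82 and Ppp1r3c, a glycogen targeting subunit, by 0.09. Pfkfb3 stood at 10.17, 9.66, 9.18 and 9.24, highest at E17.5, and Pfkfb4 at 9.47, 9.45, 8.43 and 9.04. Genes of the hypoxia response outside glycolysis had a median of 0.25 over 7 (−0.65 after the housekeeping centring, against −0.02 and −0.945 for all genes). Epas1 was at 1.77, Ndrg1 at 1.38, Bnip3 at 0.75, Vegfa at 0.14, Hif1a at 0.00 and Egln1 at −0.31.

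**Figure D4:**
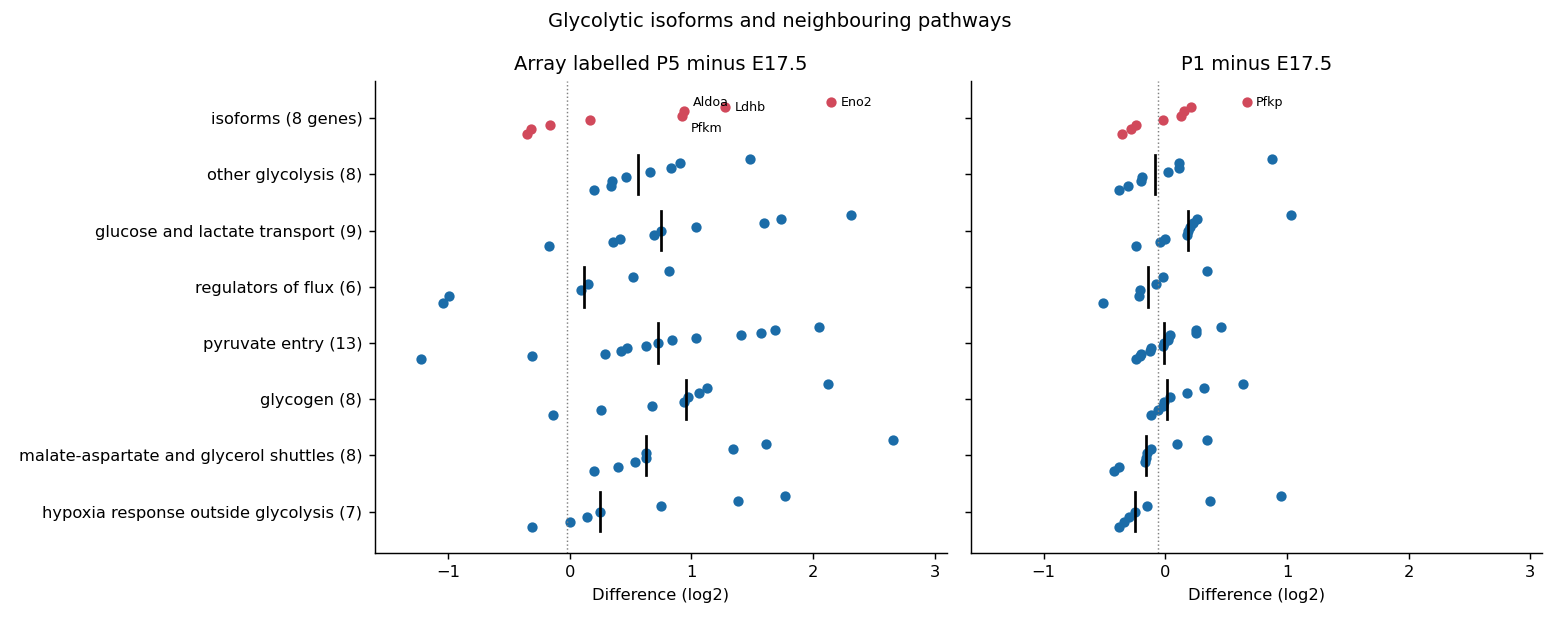
Log2 difference from E17.5 on the P5-labelled array (left) and at P1 (right) for the 8 isoform genes past the filter (red) and for lists of related genes (blue), with a black bar at the median of each list and a dotted line at the median of all genes. On the left Eno2 (2.15) and Ldhb (1.28) lie past 1 among the isoforms and most list medians lie to the right of the dotted line (centring on the median housekeeping level puts that line at −0.945 and the list medians between −0.775 and 0.06, still to its right); on the right Pfkp (0.67) is the isoform farthest from 0.

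Genes with a time course like that of a member were looked for where the member had a 2-fold range, which held for Eno2 and Ldhb. Likeness was the root mean square distance between profiles over the 4 arrays, each centred on its own mean, among 10474 genes. Nearest to Eno2 were Tlr3 (0.04), Zfp385b (0.05) and Lin7b (0.06), and 46 genes lay within 0.15. Nearest to Ldhb were Peak1 (0.02), Slc25a35 (0.03) and Cmc2 (0.05), and 137 genes lay within 0.15. Tlr3 and Slc25a35 passed the filter through the P5-labelled array alone, with their signals on the other arrays under it. With 4 arrays many genes share a profile, and the nearness is a description.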

How the data were processed

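Per the labels, RNA was extracted from pooled pontine nucleus and labelled with biotin after a whole-transcript protocol. For each probe set the authors deposited a log2 signal from Affymetrix Expression Console, per the submitters' processing notes. Its version, summary method and normalization: not given in the sources used here. That values are log2 was inferred from their range (1.84 to 14.72, medians 7.89 to 7.94). Of 35556 probe sets, the platform's table named 23410, of which 21789 had 1 gene symbol and 1621 several; the other 12146 were left unnamed. Each gene was represented by its single-symbol probe set with the highest mean, and kept when its highest array reached 8.41. Differences, isoform balances (difference of 2 genes' differences) and counts at 2-fold were computed with Python 3.11.15, pandas 2.3.3 and numpy 2.4.6; counting was tested on simulated data. No test was run, as each age had 1 array. The named genes are the members, up to 3 highest and 3 lowest of each related list for P5 against E17.5, a fixed set of pathway genes, the top markers, and the 3 nearest profiles. The members and lists were chosen with earlier results of these data known. Alternatives covered the probe set, the scaling, the threshold and the filter.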

Additional observations from a re-analysis of the deposited data

How the results depend on the processing

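No paired analysis was possible because each age had 1 array. At 1.5-fold in place of 2-fold, the members called numbered 1 for P1 versus E17.5 (0 at 2-fold), 4 for P5 versus E17.5 (2), 3 for P14 versus E17.5 (1), 4 for P5 versus P1 (2), 2 for P14 versus P1 (0) and 4 for P14 versus P5 (2). Centring on the median level of the housekeeping list gave 4 members at 2-fold for P5 versus E17.5 (1 higher, 3 lower), where 355 of 11241 genes were higher and 5192 lower. It gave 3 for P5 versus P1 (1 higher, 2 lower), where 239 genes were higher and 4653 lower. Both lower counts include Hk1 by the probe set chosen by the rule, and its other probe set was not tried here. For P14 versus E17.5 the centring gave 0, where 209 genes were higher and 957 lower. For P14 versus P5 it gave 1 (higher), where 971 genes were. Ldhb was called in none. The medians of the other glycolysis genes were then −0.335 (P5 versus E17.5), −0.335 (P5 versus P1), −0.40 (P14 versus E17.5), −0.185 (P14 versus P1) and 0.06 (P14 versus P5), where the deposited scale gave 0.56, 0.575, 0.03, 0.26 and −0.405. With no level filter those for P5 versus E17.5 and against P1 were both 0.35. The median level of that short list moved through gaps between genes, and centring on the median of its genes' differences, added after seeing the data, moved no member difference by more than the probe set SD. Of 192 isoform balance values under the alternatives, 187 kept their direction, but many of them could not change. Centring moves both genes of a pair alike, and averaging probe sets changes nothing for a gene with 1. Of 282 member differences, 257 kept their direction, as did 35 of 42 medians of the other glycolysis genes. The largest moves of the balances came from the choice of probe set, also added after seeing the data. With the RefSeq-paired Hk1 probe set, Hk2 over Hk1 shifted by −0.01 for P5 versus E17.5, −0.18 for P14 versus E17.5, 0.23 for P5 versus P1 and 0.06 for P14 versus P1, in place of 0.49, 0.16, 0.69 and 0.36; the mean of all probe sets gave 0.21 for the last. With the other Ldhb probe set, Ldhb over Ldha shifted by 0.97 for P5 versus E17.5, 0.96 for P5 versus P1 and −0.97 for P14 versus P5, in place of 1.44, 1.40 and −1.28. No difference called at 2-fold changed sign; Pfkm for P5 versus P1, past 1.5-fold at 0.79, was −0.12 after centring on the median housekeeping level. Animal-to-animal spread and background signal were not measured, so signals under 8.41 have inexact differences.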
